A study of Mus musculus with 2 samples.

Results

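The genes of the cytosolic ribosomal proteins, which form the protein part of the ribosome outside the mitochondrion, were described in innate lymphoid cells (ILCs) of mouse skin. Members were chosen by symbol alone. They were every gene whose symbol begins with Rpl, Rps or Rplp followed by a digit, together with Rpsa, without the Rps6k kinases and without symbols that hold -ps. This gave 84 of the 18786 genes in the deposited table, of which 47 carry an Rpl, 34 an Rps (Rpsa included) and 3 an Rplp symbol. The symbol rule also took in 2 genes that are not known as parts of the mature ribosome. Rps19bp1 encodes a nucleolar protein that binds Rps19, and Rpl7l1 a relative of Rpl7 that acts in ribosome assembly. The further paralogues Rpl3l, Rpl10l and Rps4l fit the symbol rule but were not among the genes of the deposited table.

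Skin ILCs came from C57/BL6 mice of 2 ages, postnatal day 1 and postnatal day 14, each age represented by 1 library, and the labels name no genetic change or treatment. Cells positive for CD45 and Thy1.2 and negative for lineage markers were sorted from collagenase-digested skin and captured with a 10x Genomics 5' kit. What was counted per gene and cell were UMIs, molecular tags by which amplified copies of an RNA are recognised. The suffix of the cell names divides the table into cell set 1 and cell set 2, but it matches neither day's label, so values are given per set and the days were not compared. How many animals stood behind a library is not given in the labels.

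Of 5246 deposited cells, 4949 had at most 10% mitochondrial UMIs and were kept, 1441 in set 1 and 3508 in set 2. A cell was called cycling when the proliferation genes Mki67, Top2a and Birc5 together held at least 3 UMIs. Set 1 then had 990 cells not cycling and 451 cycling (31.3%), and set 2 had 3331 and 177 (5.05%). The median depth of these 4 groups, in that order, was 9284, 15545, 4747 and 9019 UMIs per cell. The libraries have no replicates, so no test was run, and all intervals are exact 95% intervals of counting error only. The ILC markers Ptprc, Thy1, Il7r, Id2 and Il2rg were present in every group and summed to between 2280 and 4428 UMIs per 1000000 (CPM). Markers of type 2 ILCs, Gata3 and Rora among them, summed to between 3179 and 4002 CPM and those of type 3 ILCs to between 109 and 260 CPM. The markers of type 2 ILCs were uneven, with Rora and Areg reaching the highest levels. Neither Il1rl1 nor Klrg1 of the same list passed 22.5 CPM in any group, so the sum does not stand for each marker. Myeloid markers summed to at most 0.561 CPM. Among cells not cycling, the markers of mast cells summed to 102 CPM (set 1) and 0.429 CPM (set 2), those of keratinocytes to 122 and 14.3 CPM, of fibroblasts to 77.5 and 3.49 CPM, of T cells to 50.1 and 93.7 CPM and of red blood cells to 184 and 217 CPM. The 1 of 3 B cell markers in the table was at 0 in every group but set 1 not cycling (0.639 CPM), and myeloid markers were at 0 in cycling cells of set 2. The part of these RNAs in the ratios between the sets was not tested, and 4 cell barcodes occurred in both sets.

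A ribosome is built from a small (40S) subunit, which decodes the messenger RNA, and a large (60S) subunit, which joins the amino acids. The P-stalk formed by Rplp0, Rplp1 and Rplp2 recruits the elongation factors. Most ribosomal protein mRNAs start with a C followed by a run of pyrimidines, the terminal oligopyrimidine (TOP) motif, through which mTOR and Larp1 set their translation together. Making new ribosomes also needs nucleolar assembly factors, and growing or dividing cells are known to raise this synthesis. Several ribosomal protein genes have retrotransposed copies or paralogues with nearly the same sequence, so that reads of one can be counted for another.

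The coding sequences of 5 members are shown first, because how far the counts of these genes can be told apart depends on them. Each line gives the first 60 bases from the start codon in the GENCODE M21 annotation of GRCm38, and capitals mark bases that differ from Rps27 (lines 2 and 3) or from Rpl36a (line 5).
Rps27: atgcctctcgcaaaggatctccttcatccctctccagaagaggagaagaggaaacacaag
Rps27rt: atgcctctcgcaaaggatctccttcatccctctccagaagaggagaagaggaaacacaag
Rps27l: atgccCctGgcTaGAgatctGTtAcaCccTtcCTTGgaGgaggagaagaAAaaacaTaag
Rpl36a: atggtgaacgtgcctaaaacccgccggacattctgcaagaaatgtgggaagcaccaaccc
Rpl36al: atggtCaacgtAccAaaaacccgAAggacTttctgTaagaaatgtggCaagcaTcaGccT
Rps27rt, a copy of Rps27 on chromosome 9 (chr9:114982366-114982739), carried the same 255 coding bases as Rps27 on chromosome 3 (chr3:90212667-90213648), with 0 differences. Of the stretches of 50 bases in its transcripts, 91.1% also occurred in Rps27, so its count is uncertain. Rps27l, a paralogue that is known as a p53 target, matched Rps27 in 76.1% of coding bases, and 18 of the 60 bases shown differ. Rpl36al matched Rpl36a in 87.9% of 321 coding bases, and no stretch of 50 bases in its transcripts occurred in another gene of the table. Rpl39l matched Rpl39 in 85.3% of 156 coding bases.

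Start regions of Rps27, its copy and Rps27l follow, to show 2 motifs that were searched. Each runs from 40 bases before to 20 bases after a start that RefSeq annotates on GRCm38. Capitals mark CTTTCC, a pyrimidine run of the TOP kind, or CCGGAAG, which resembles the motif of ETS factors.
Rps27: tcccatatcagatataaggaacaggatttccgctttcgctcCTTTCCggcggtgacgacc
Rps27rt: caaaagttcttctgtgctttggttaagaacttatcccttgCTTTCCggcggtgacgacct
Rps27l: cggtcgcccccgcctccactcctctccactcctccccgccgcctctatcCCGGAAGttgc
These windows lie at chr3:90213629-90213688 on the minus strand, chr9:114982720-114982779 on the minus strand and chr9:66946046-66946105 on the plus strand. Rps27l has another annotated start, with its window at chr9:66946373-66946432, and neither motif was found near that start. Rps27 and Rps27rt were alike from the motif onward. Over the 64 members that the RefSeq promoter table holds, CTTTCC stood on the sense strand within 50 bases of a start in 21 (32.8%), against 5.43% of all 27025 genes of that table. On either strand the shares were 35.9% and 10.3%. CCGGAAG was found on either strand in 21.9% of the members and 5.98% of all genes. The motifs were searched separately and may share bases, a gene with several annotated starts counted once, and a match is a description of the sequence.

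Ribosomal protein RNA made up 32.1% of all UMIs in cells of set 1 that were not cycling (32.1 to 32.2%) and 27.3% in its cycling cells (27.2 to 27.3%). In set 2 the shares were 29.5% (29.5 to 29.5%) and 23.8% (23.7 to 23.9%). The cycling cells of both sets thus gave a smaller share of their UMIs to ribosomal proteins, a difference of -4.87 percentage points in set 1 and of -5.71 in set 2. Set 2 minus set 1 was -2.65 points among cells not cycling and -3.48 points among cycling cells. Single cells spread widely around these values. Per cell the median was 32.5% in set 1 not cycling (SD 6.61 over cells), 27.1% in set 1 cycling (SD 5.30), 29.5% in set 2 not cycling (SD 7.82) and 23.0% in set 2 cycling (SD 5.70). The differences were of the size of the SD among cells or smaller, and the groups overlapped. The plot of single cells shows this overlap and a tail of set 2 cells near 0.

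**Figure D1:**
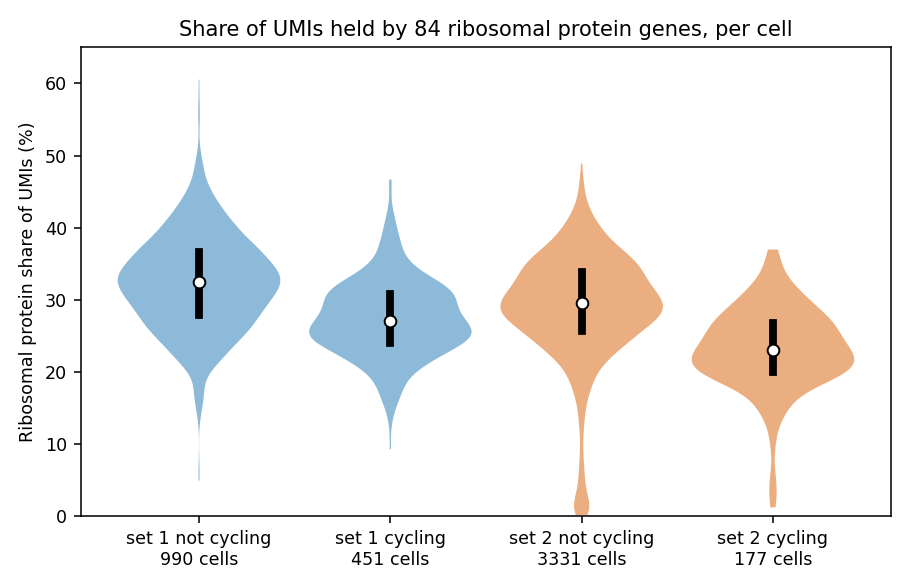
Share of each cell's UMIs held by the 84 ribosomal protein genes (y axis, percent) in the 4 groups of kept cells (x axis, with cell numbers). Outlines show the density of cells, black bars the range from the 25th to the 75th percentile and open circles the median, which lies at 32.5, 27.1, 29.5 and 23.0% from left to right.

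The share stepped down with the amount of proliferation RNA. In set 1 it was 32.3% with 0 UMIs of Mki67, Top2a and Birc5, 31.6% with 1 to 2, 29.7% with 3 to 9 and 26.6% with 10 or more. In set 2 the same classes had 29.6, 28.6, 25.4 and 22.6%. At the limit of the cycling call the steps were small, 30.7% at exactly 2 UMIs (75 cells) and 29.3% at exactly 3 (40 cells) in set 1, and 27.1% (86 cells) and 26.7% (27 cells) in set 2. Depth rose along the same classes, from a median of 8865 to 16696 UMIs in set 1 and from 4653 to 9881 in set 2. Every cell was also thinned to 4000 UMIs, which left out 60 and 1081 shallower cells, and proliferation UMIs were counted again afterwards. The share then went from 32.4% with 0 proliferation UMIs to 31.0% with 1 to 2 and 26.5% with 3 or more in set 1. In set 2 the thinned shares were 29.8, 28.4 and 22.5%. Among cells not cycling whose depth lay between the quartiles of the cycling cells, the share was 31.3% in set 1 (201 cells) and 29.6% in set 2 (344 cells), above the 27.3 and 23.8% of the cycling cells.

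Among cells not cycling, the share ran against that of Malat1, a long noncoding RNA of the nucleus. With the cells ranked by Malat1 share and cut into 4 classes of about equal size, it went from 33.3% in the class with the least Malat1 to 24.5% in that with the most in set 2, and from 34.1 to 30.6% in set 1. Spearman's rho across cells was -0.556 in set 2 (3331 cells) and -0.232 in set 1 (990 cells), and because both shares have the same total they are tied. With Malat1 taken as a share of UMIs outside the members, rho was -0.471 and -0.133. Malat1 itself held 2.30% of UMIs in set 2 and 1.14% in set 1 among cells not cycling, and 1.80 and 1.07% in cycling cells. The share of Eef1a1, a TOP gene for the elongation factor that brings tRNAs to the ribosome, among UMIs outside the members had rho 0.796 with the ribosomal protein share in set 1 and 0.713 in set 2. For Actb, the cytoskeletal actin gene, rho was 0.0668 and 0.173. The 4 classes by total UMIs differed less, between 31.4 and 33.5% in set 1 and between 28.1 and 30.5% in set 2. Cells rich in the heat-shock RNAs Hspa1a and Hspa1b, at 10 or more per 10000 UMIs, had 32.9% against 31.9% in the others in set 1 and 29.4% against 29.5% in set 2.

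**Figure D2:**
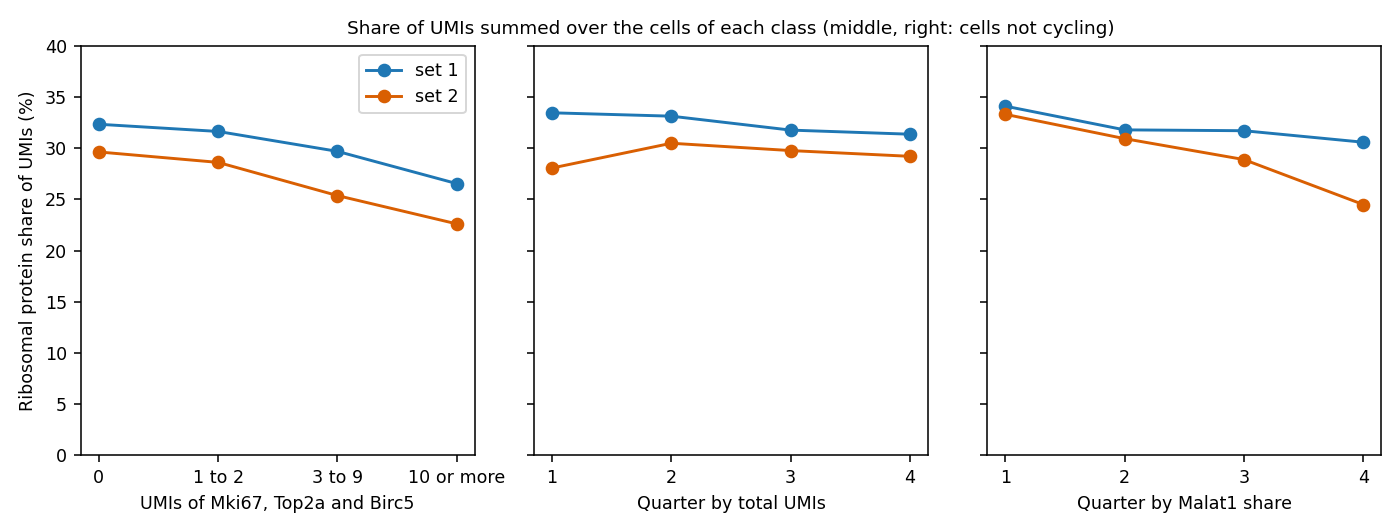
Ribosomal protein share of UMIs (y axis, percent) summed over classes of cells in set 1 (blue) and set 2 (orange), by UMIs of the 3 proliferation genes (left) and, in cells not cycling, by 4 classes of total UMIs (middle) and of Malat1 share (right), from lowest to highest. In set 2 the share goes from 33.3 to 24.5% across the Malat1 classes, while across the proliferation classes it goes from 32.3 to 26.6% in set 1 and from 29.6 to 22.6% in set 2.

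A small number of cells had almost no ribosomal protein RNA. In 136 kept cells of set 2 the members held under 10% of UMIs, with a median of 1.70% per cell. These cells had a median of 1340 UMIs, with medians of 10.97% Malat1 and 7.59% mitochondrial UMIs, against 4934 UMIs, 2.08% and 2.63% in the other cells of set 2. In set 1, 3 cells fell under 10%. The 267 cells of set 2 left out for over 10% mitochondrial UMIs had a pooled share of 4.66%, and the 30 left out of set 1 one of 20.5%. At the mitochondrial limit itself, the 39 cells of set 2 just inside it (9 to 10%) had a pooled share of 9.80% and the 39 just outside it (up to 11%) one of 8.30%. In set 1 the corresponding 4 and 3 cells had 26.2 and 35.4%.

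The split between the subunits hardly moved. Genes of the 40S subunit (31) held 44.7, 45.3, 44.3 and 44.8% of the ribosomal protein UMIs in set 1 not cycling, set 1 cycling, set 2 not cycling and set 2 cycling. Genes of the 60S subunit without the stalk (43) held 49.2, 48.4, 49.4 and 48.6%. The 3 stalk genes held 5.48, 5.58, 5.65 and 5.87%. The 7 remaining members, the paralogues and near-names Rps27l, Rps27rt, Rps19bp1, Rpl7l1, Rpl22l1, Rpl36al and Rpl39l, held 0.603, 0.671, 0.661 and 0.802%. Most members were abundant one by one as well, with 75 of the 84 at 1000 CPM or more in set 1 not cycling and 76 in set 2 not cycling. Rpl39l, known mainly from the testis, was the lowest member in every group, at 2.77, 2.53, 2.33 and 2.92 CPM. UMI counts of a 5' kit are not divided by gene length, and the ratios below compare each gene with itself.

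In cycling cells the members had lower CPM almost as one. CPM is relative to all UMIs of a group, so a lower CPM does not tell the amount per cell. Cycling cells had more UMIs per cell, with medians of 15545 against 9284 in set 1 and 9019 against 4747 in set 2. In set 1, 80 of the 83 members with at least 100 UMIs had a lower CPM in cycling cells, where 44.3% of 8084 genes did, and their median log2 ratio was -0.24 against 0.05 for all genes. In set 2, 76 of 83 were lower, where 40.9% of 8056 genes were, with a median of -0.31 against 0.11. Scaling by edgeR's TMM factors, which shifted all log2 ratios by -0.05 in set 1 and by -0.20 in set 2, left 80 and 79 members lower. The shift moves every gene alike. Shares of all genes, here and below, were taken before scaling and not after it. The members lay close together, with an SD of 0.13 in set 1 and 0.24 in set 2 against 0.74 and 0.77 over all genes. Genes with as few as 100 UMIs enter the SD over all genes, and most members have far more. Counting error thus widens that SD more, and no SD at like UMI numbers was taken. None of the 83 members departed by 1.5-fold or more from the median member in set 1, where 14.9% of all genes departed that far from the median gene and 9.38% of those with at least 1000 UMIs. In set 2, 3 members departed, where 24.2% of all genes and 14.5% of those with at least 1000 UMIs did.

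The 3 that departed in set 2 were all higher in cycling cells and all belonged to the paralogues and near-names. Rps19bp1 was at 21.6 CPM in cells not cycling and 33.9 CPM in cycling cells, 1.57-fold (1.17 to 2.08). Its levels in set 1 were 41.9 and 51.9 CPM, 1.24-fold (1.07 to 1.43). The assembly factor gene Rpl7l1 was at 42.4 and 58.5 CPM in set 2, 1.38-fold (1.11 to 1.71), and at 72.8 and 67.9 CPM in set 1, where the interval of the ratio included 1 (0.829 to 1.05). Rps27l was at 192 and 258 CPM in set 2, 1.35-fold (1.22 to 1.49), and at 287 and 337 CPM in set 1, 1.18-fold (1.11 to 1.24). Depth differs between these groups, and a UMI of Rps19bp1 was seen in 9.25% of set 2 cells not cycling and 25.4% of cycling cells before thinning, against 7.77% and 17.2% after thinning to 4000 UMIs. Cycling was called again on the thinned counts, so the thinned groups are not the same cells. Set 2 then had 122 cycling cells in place of 177, and set 1 had 1074 cells not cycling in place of 990. Rps27l, thinned, was seen in 47.8 and 57.4% of set 2 cells and in 60.9 and 67.1% of set 1 cells. For Rpl7l1 the thinned shares were 15.2 and 19.7% in set 2 and 22.9 and 23.8% in set 1. Against other cells of matched depth, Rps19bp1 and Rpl7l1 still departed in set 2 (1.11 and 0.59 from the median member, log2) and Rps27l did not (0.54).

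Among the parts of the mature ribosome, a few were less lowered than the rest, or higher, in cycling cells. Rpl41, the shortest ribosomal protein, was at 5778 CPM in cells not cycling and 5761 CPM in cycling cells of set 1 and at 6612 and 7078 CPM in set 2. Rps2, a 40S protein near the mRNA entry channel, was at 3830 and 3697 CPM in set 1, 0.965-fold (0.950 to 0.981), and at 3636 and 4005 CPM in set 2, 1.10-fold (1.07 to 1.13). Rpsa, which is also known as a laminin receptor, was at 5667 and 5182 CPM in set 1, 0.914-fold (0.902 to 0.927), and at 4786 and 4988 CPM in set 2, 1.04-fold (1.02 to 1.07). After TMM scaling the log2 ratios in set 2 became -0.10 for Rpl41, -0.06 for Rps2 and -0.14 for Rpsa, so the higher level of these 3 genes in cycling cells of set 2 turned round. Relative to the median member, a position that scaling cannot alter, all 3 were higher in cycling cells of both sets.

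At the other end stood Rps27 and its copy. Rps27, a 40S zinc-finger protein, was at 4528 CPM in cells not cycling and 3323 CPM in cycling cells of set 1, 0.734-fold (0.722 to 0.746), and at 4890 and 2987 CPM in set 2, 0.611-fold (0.594 to 0.628). Rps27rt went from 166 to 121 CPM in set 1 and from 239 to 134 CPM in set 2, 0.561-fold (0.489 to 0.641). As the coding sequences printed above are the same, these are not independent measurements, and the sum of both symbols had ratios of 0.734 and 0.608. Rpl17, at the peptide exit tunnel, had ratios of 0.748 and 0.632, and Rps14, a 40S protein known from the 5q- syndrome, 0.782 and 0.652. Rpl30 (0.774 and 0.689) and Rpl26 (0.804 and 0.683) also belonged to the 5 lowest in at least 1 set. Rps27 and Rps27l, paralogues that can take the same place in the 40S subunit, thus lay at opposite ends, Rps27l higher and Rps27 lower in cycling cells of both sets, also after TMM scaling.

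**Figure D3:**
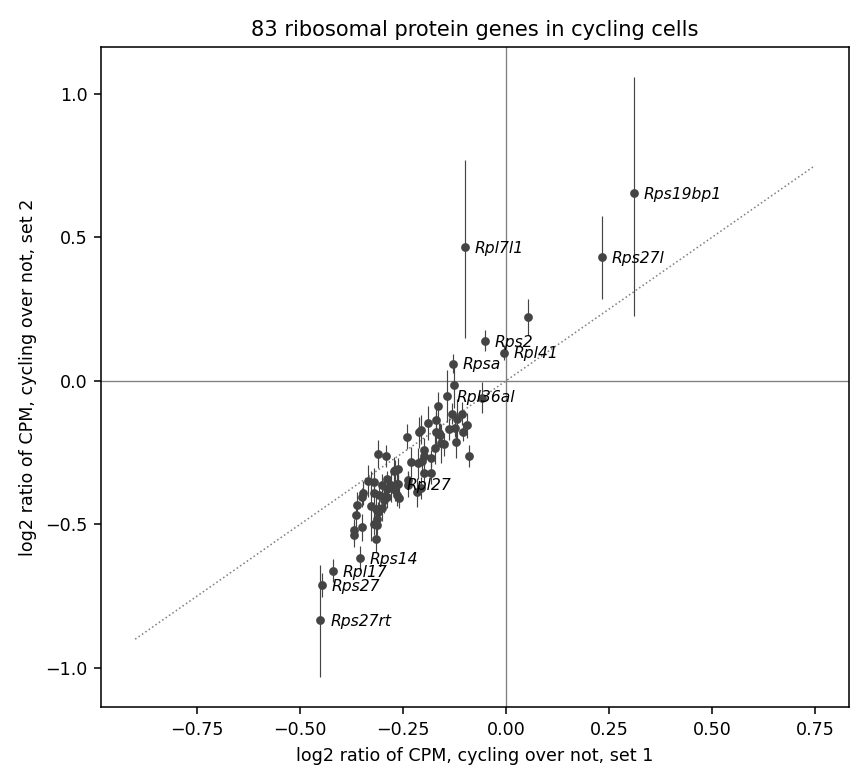
Log2 ratio of CPM in cycling over other cells for the 83 ribosomal protein genes with at least 100 UMIs, some of them named, in set 1 (x axis) and set 2 (y axis), with 95% intervals of counting error for set 2 and the line of equal values dotted. Rps27 and Rps27rt lie at the lower left, Rps19bp1 and Rps27l at the upper right, and 79 of 83 genes have the same sign in both sets.

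The order of the members was much alike in the 2 sets. Across the 83 members the log2 ratios of cycling over other cells had r = 0.916 and rho = 0.906, and 79 had the same sign. Across 1915 genes of all kinds with at least 1000 UMIs in both contrasts r was 0.875 and rho 0.784. These are correlations across genes, which are not independent replicates, and the cycling cells of both sets were called from the same 3 genes. Members with roles of their own followed the rest. Rpl5 and Rpl11, which hold back Mdm2 when ribosome assembly fails, had ratios of 0.824 and 0.815 in set 1 and of 0.777 and 0.750 in set 2. Rps6, the phosphorylation target of S6 kinase, had 0.862 and 0.820, and Rps19, known from Diamond-Blackfan anaemia, had 0.901 and 0.857. The stalk genes Rplp0, Rplp1 and Rplp2 had 0.908, 0.818 and 0.893 in set 1 and 0.890, 0.788 and 0.881 in set 2. Of the 40S genes 30 of 31 were lower in set 1 and 28 of 31 in set 2, and of the 60S genes 43 and 42 of 43.

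Ribosomal proteins whose symbols the rule did not reach moved the same way. Fau, the gene for the precursor of eS30, and Rack1, the gene for the scaffold on the 40S head, were lower in cycling cells of both sets. Fau went from 5910 to 4627 CPM in set 1 and from 6301 to 4493 CPM in set 2, and Rack1 from 2622 to 2165 and from 2179 to 1739 CPM. Translation factors and other TOP genes were lower in 13 of 19 cases in set 1 (median -0.13) and in 11 of 19 in set 2 (median -0.08). Of all genes, 44.3 and 40.9% were lower. After TMM scaling 14 and 15 of the 19 were lower, but the scaling moves every gene down and no share of all genes was taken after it. Eef1a1 had ratios of 0.804 and 0.744 and Tpt1, a TOP gene for a growth-related protein, 0.861 and 0.796. Nap1l1, a histone chaperone gene, and Vim, the gene of the filament protein vimentin, went the other way, with Nap1l1 at 281 and 454 CPM in set 1 and at 174 and 391 CPM in set 2.

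The genes that build ribosomes had higher CPM in cycling cells, where the ribosomal proteins had lower CPM. Of 31 measured biogenesis genes, 24 were higher in set 1 (median log2 ratio 0.18, against 55.7% of all genes higher) and 29 in set 2 (median 0.51, against 59.1%), and 23 and 27 were after TMM scaling. In set 2, 13 of them reached 1.5-fold, where 16.9% of all genes did, and in set 1 only Nop58 did, where 10.7% of all genes did. Nop58, a core protein of the box C/D particles that methylate ribosomal RNA, went from 168 to 272 CPM in set 1, 1.62-fold (1.51 to 1.73), and from 74.3 to 150 CPM in set 2, 2.02-fold (1.76 to 2.31). Nop56, its partner in the same particle, had ratios of 1.44 and 1.69. Nolc1, a chaperone of nucleolar particles, had 1.31 and 2.13, and the nucleolar protein genes Ncl and Npm1 had 1.25 and 1.06 in set 1 and 1.27 and 1.22 in set 2.

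Mitochondrial ribosomal protein genes, the second translation machinery of the cell, were also higher in cycling cells, 63 of 76 in set 1 (median 0.24) and 67 of 75 in set 2 (median 0.44). Of all genes, 55.7 and 59.1% were higher. After TMM scaling 57 and 58 of the mitochondrial genes were higher. Mrpl18 went from 74.0 to 141 CPM in set 1, 1.90-fold (1.72 to 2.09), and from 46.0 to 112 CPM in set 2, 2.44-fold (2.07 to 2.87). Mrpl28 had ratios of 1.68 and 2.07. The regulators of ribosome synthesis showed no common direction in set 1, with 5 of 11 higher. In set 2, 8 of 11 were higher before scaling, near the 59.1% of all genes that were higher there. Eif4ebp1, a translation repressor under mTOR, was among them, at 15.3 and 28.7 CPM. After TMM scaling 7 of 11 were higher, and the share of all genes was not taken at that scaling. Myc, which drives ribosome synthesis in many cells, had nearly equal levels in cycling and other cells, at 18.2 against 19.3 CPM (set 1) and 33.9 against 36.0 CPM (set 2). The plot of the lists shows the ribosomal protein genes to the left and the genes of biogenesis and of mitochondrial ribosomes to the right of 0 in both sets.

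**Figure D4:**
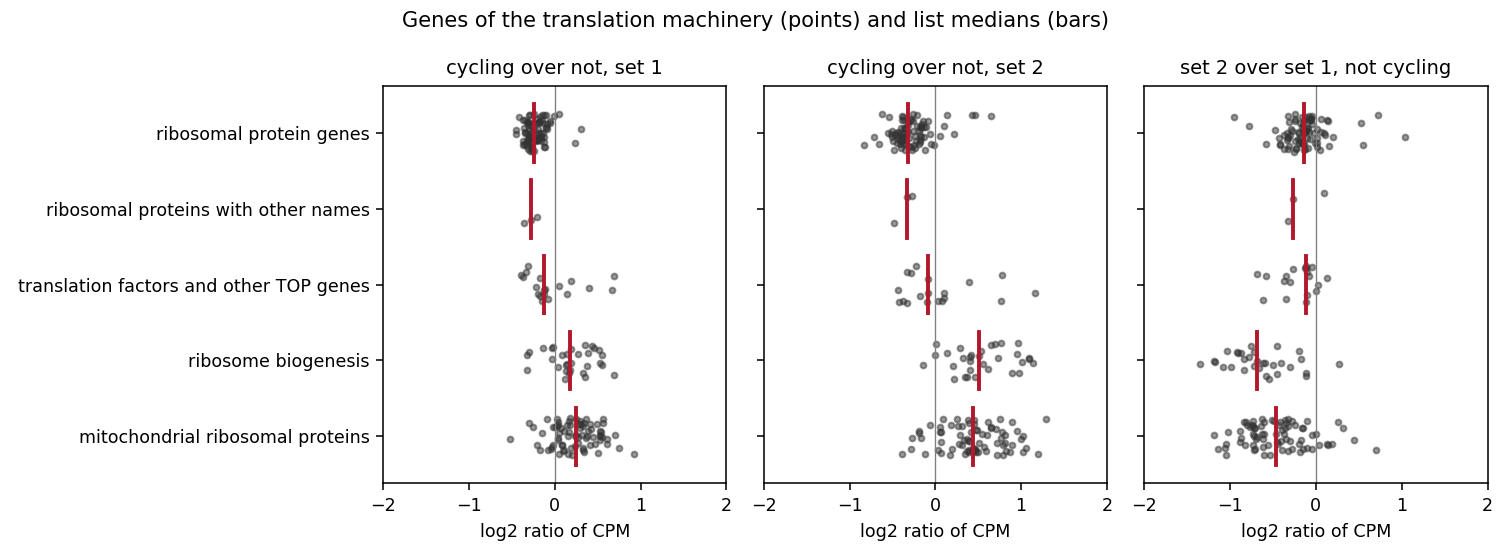
Log2 ratio of CPM (x axis) of single genes (points, spread vertically at random) and the median (red bar) of 5 lists of the translation machinery, for cycling over other cells in set 1 and set 2 and for set 2 over set 1 in cells not cycling. In cycling cells the medians of ribosomal proteins are -0.24 and -0.31 and those of ribosome biogenesis 0.18 and 0.51, and between the sets biogenesis has a median of -0.69.

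Between the sets the members differed little as a group. Among cells not cycling their median log2 ratio of set 2 over set 1 was -0.14, against -0.12 for all 8777 genes measured, and 66 of 83 were lower, where 58.8% of all genes were, but TMM scaling, which shifted all ratios by 0.13, left 45 of 83 lower with a median of -0.01. Relative to all genes, the members of cells not cycling thus lay close to the middle. The members again lay closer together than genes in general, with an SD of 0.27 against 0.78, and 74 of 83 were within 1.25-fold of the median member. As above, the SD over all genes includes genes with few UMIs, whereas 79 members had at least 10000. In cycling cells their median was -0.23 against -0.07 for 6646 genes, and 73 of 83 were lower, where 56.4% of all genes were (74 after TMM scaling).

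A few members stood out from this narrow band. In cells not cycling, 6 departed from the median member by 1.5-fold or more, where 30% of all genes departed that far from the median gene and 26.7% of those with at least 1000 UMIs. Rpl27, a 60S protein, had 985 CPM in set 1 (965 to 1005) against 2028 CPM in set 2 (2006 to 2050), which was 2.06-fold higher (2.01 to 2.11). In cycling cells it was at 820 and 1581 CPM, 1.93-fold (1.84 to 2.02). Rpl27 was thus higher in set 2 in both kinds of cell, against a median member that was lower there.

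Rpl36al, the paralogue of Rpl36a shown above, had 388 CPM in set 1 against 643 CPM in set 2 among cells not cycling, 1.66-fold (1.60 to 1.72), and at 351 and 620 CPM among cycling cells, 1.77-fold (1.64 to 1.90). Rpl36a itself was at 1934 and 1801 CPM, and at 1777 and 1554 CPM in cycling cells, close to the median member in both, and its log2 ratio in cells not cycling turned from -0.10 to 0.03 with TMM scaling. After thinning to 4000 UMIs and a new cycling call, a UMI of Rpl36al was seen in 78.0% of set 1 cells and 90.6% of set 2 cells not cycling. The higher level in set 2 was thus also seen at equal depth. Rpl13a, a 60S protein also known for silencing mRNAs after interferon-gamma, was at 324 and 475 CPM in cells not cycling, 1.46-fold (1.40 to 1.53), and at 259 and 351 CPM in cycling cells, 1.36-fold (1.24 to 1.49). Rps27rt was at 166 and 239 CPM, 1.44-fold (1.36 to 1.53), in cells not cycling, while in cycling cells the interval of its ratio included 1 (0.950 to 1.28).

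The 2 members that departed on the lower side were those not known as parts of the mature ribosome. Rps19bp1 had 41.9 CPM in set 1 against 21.6 CPM in set 2 among cells not cycling, 0.515-fold (0.445 to 0.597), and at 51.9 and 33.9 CPM in cycling cells, 0.653-fold (0.487 to 0.864). Rpl7l1 was at 72.8 and 42.4 CPM, 0.582-fold (0.523 to 0.648), and at 67.9 and 58.5 CPM in cycling cells, where the interval included 1 (0.687 to 1.07). With cells thinned to 4000 UMIs, Rpl7l1 no longer departed among cells not cycling, with a log2 difference from the median member of -0.49, and 5 members did in place of 6. Rps27l, at 287 and 192 CPM, 0.669-fold (0.635 to 0.704), was the next on the lower side, 1.35-fold below the median member. Rpl41 (1.14-fold) and Rps28 (1.11-fold) were the next on the higher side. In cycling cells 3 members departed, Rpl27, Rpl36al and Rpl13a, where 22.5% of all genes did. The other members stayed near the median, among them the X-linked genes Rpl10 (1.10-fold), Rpl39 (0.883-fold) and Rps4x (0.906-fold), and Rpl38, known for its part in the translation of Hox mRNAs (0.958-fold).

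**Figure D5:**
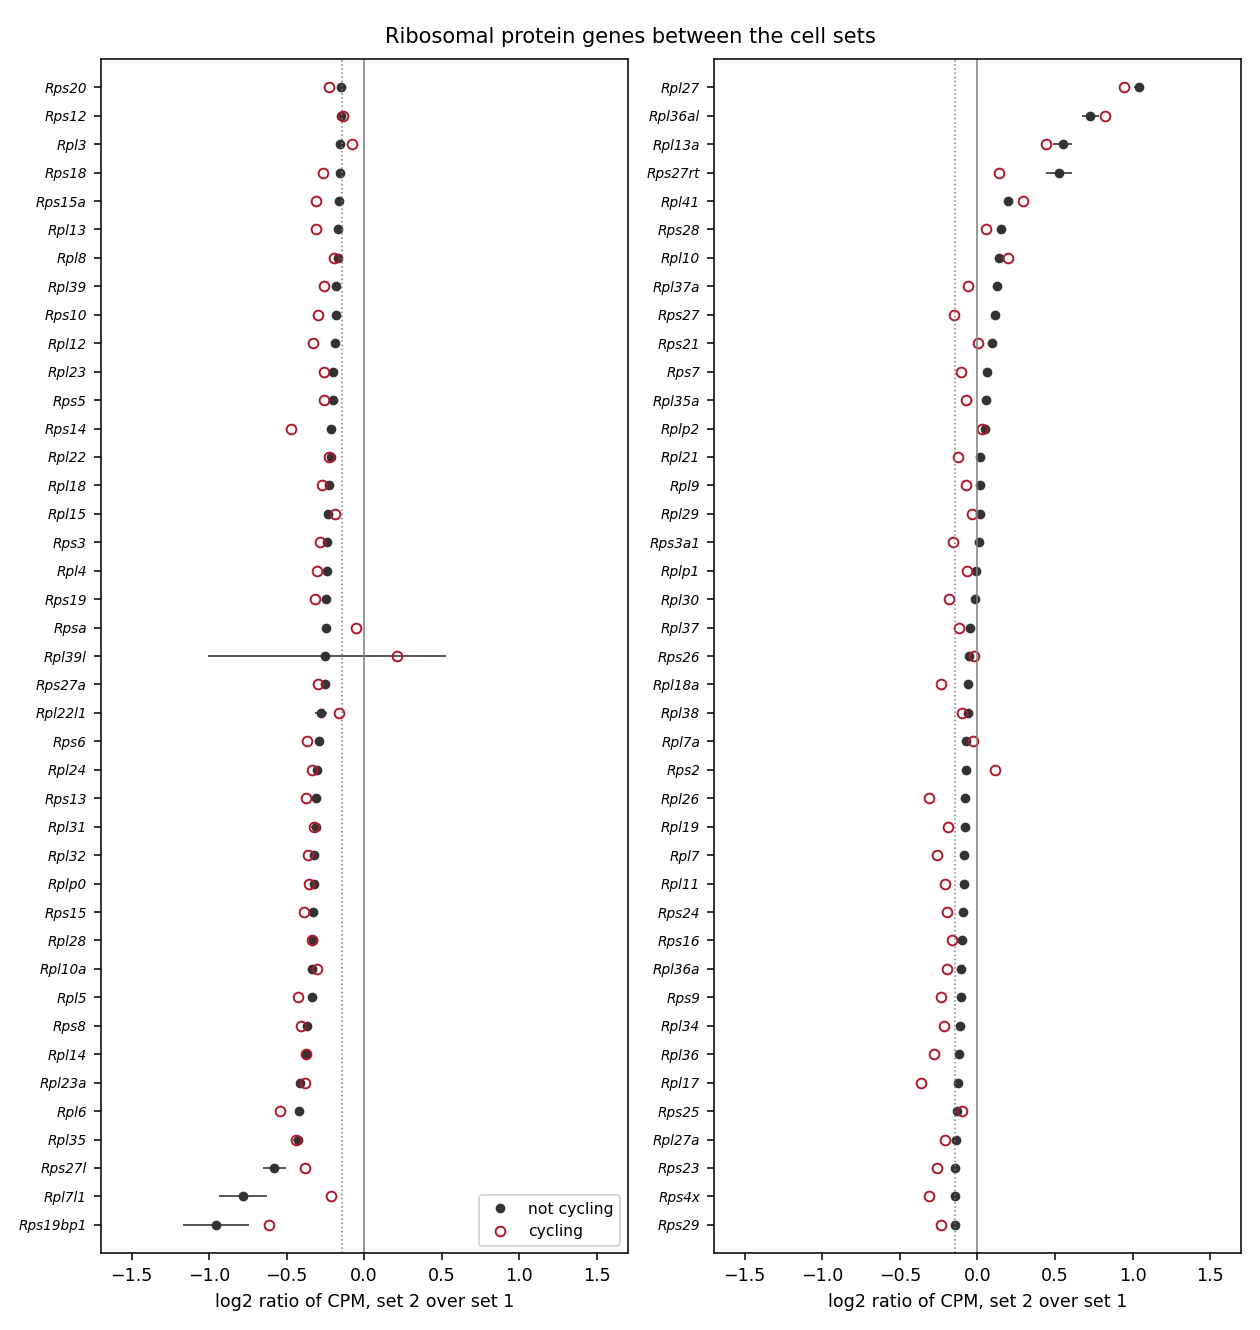
Log2 ratio of CPM in set 2 over set 1 (x axis) for the 82 ribosomal protein genes shown by name (y axis, ordered by the ratio in cells not cycling, the lower ones on the left), in cells not cycling (filled, with 95% intervals of counting error) and cycling cells (open). The dotted line is the median member in cells not cycling at -0.14, and Rpl27 at 1.04 and Rps19bp1 at -0.96 are the ends of the range.

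Copies of ribosomal protein genes under other symbols ranged widely between the sets. Gm10076, which shares sequence with Rpl41, had 482 CPM in set 1 against 61.8 CPM in set 2 among cells not cycling, 0.128-fold (0.120 to 0.137). Gm10073, which shares sequence with Rplp1, was at 90.6 and 16.4 CPM, 0.181-fold, and Rps12-ps3 at 24.2 and 5.64 CPM, 0.233-fold. In the other direction Rpl10-ps3 was at 55.4 and 110.8 CPM, with an interval of the ratio from 1.81 to 2.21. Others differed little, such as Rpl36a-ps1 at 22.2 and 22.9 CPM and Rpl27-ps3 at 52.0 and 58.2 CPM. Summed with the copies, the ratio was 1.07 for Rpl41, 2.01 for Rpl27, 1.45 for Rpl13a and 1.12 for Rpl10. In set 1, Rpl27-ps3 was at 52.0 CPM against 985 CPM for Rpl27, and the copies of Rpl13a were also far below Rpl13a. The sums of Rpl27 and Rpl13a thus follow these genes. They cannot show whether shared sequence has a part in the higher levels of both genes in set 2. For Rps27 and Rps27rt, 2 genes of the same coding sequence, the ratio of the sum was 1.09. Rps27 made up most of it (4528 CPM against 166 CPM for Rps27rt in set 1). The sum thus follows Rps27 and cannot check the 1.44-fold of Rps27rt. Rpl9-ps1 was at 0 in all 4 groups.

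Members that share much sequence with another gene of the table lay higher in set 2 relative to the median member. Of the 17 members in which at least 20% of 50-base stretches occur in another gene of the table, 14 lay above the median member and their median departure was 0.16 (log2), with 3 past 1.5-fold (Rpl27, Rpl13a and Rps27rt). Of the 9 members in which 1 to 20% do, 5 lay above it, with a median of 0.00067 and 1 past 1.5-fold (Rpl7l1). Of the 57 members in which under 1% do, 22 lay above it, with a median of -0.04 and 2 past 1.5-fold (Rpl36al and Rps19bp1). Among Rpl27's stretches 38.8% were shared and among those of Rpl13a 41.1%. The part of shared sequence in these ratios was not tested.

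The genes of ribosome biogenesis were lower in set 2 than in set 1, beyond the ribosomal proteins. Among cells not cycling, 30 of 31 were lower with a median log2 ratio of -0.69, and 20 by 1.5-fold or more, where 18.3% of all genes were, and after TMM scaling 28 were lower, 15 by that much. Nop58 was at 168 and 74.3 CPM, 0.442-fold (0.410 to 0.477), and Nop2, an RNA methyltransferase of the nucleolus, at 14.7 and 5.76 CPM. Mitochondrial ribosomal protein genes were lower in 69 of 77 cases (median -0.47), where 58.8% of all genes were lower, and 64 were after TMM scaling. Of the regulators 9 of 11 were lower, or 8 after TMM scaling. Larp1, which binds TOP mRNAs, was at 73.5 and 37.8 CPM and Eif4ebp1 at 35.4 and 15.3 CPM, while Myc was higher in set 2, at 19.3 and 36.0 CPM. Translation factors and TOP genes had 17 of 19 lower with a median of -0.12, close to all genes, which became 8 of 19 lower after TMM scaling.

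From cell to cell, some members varied more than counting allows. In cells not cycling with at least 200 ribosomal protein UMIs (987 in set 1 and 3163 in set 2), the variance of each of the 83 members around its share of the cell's ribosomal protein UMIs was divided by that expected from sampling. The median ratio was 1.47 in set 1 and 1.28 in set 2, where 1 means sampling alone. Rplp1 had the highest ratio in both sets, 4.79 and 2.34. Rpl41 (2.89 and 2.21), Rpl23a (2.87 and 2.09) and Rps2 (2.81 and 2.30) were among the first 5 in both. Rpl22l1, the paralogue of Rpl22 with a part in T cell development and splicing, was among the first 5 in set 1 (2.80, and 1.74 in set 2), and Rps26, which contacts the mRNA at the exit channel, in set 2 (2.12). This ratio grows with depth and level, and the variation beyond sampling had a CV of 21.3 and 17.3% for Rplp1, 28.1 and 33.3% for Rpl23a and 43.4 and 41.5% for Rpl22l1. The order of the members was alike in the 2 sets (rho 0.901 over 83 genes).

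A few pairs of members were high in the same cells. For 3081 pairs of the 79 members with at least 10000 UMIs, correlations of these residuals across cells had rho 0.651 between the sets, and 12 pairs reached 0.2 in both while 5 fell to -0.2 or below in both. Rpl23a, which sits at the peptide exit, went with Rps15 (r = 0.44 in set 1 and 0.34 in set 2), Rps25 (0.38 and 0.31), Rpl31 (0.40 and 0.27) and Rpl12 (0.34 and 0.25). Rps2 went with Rpl41 (0.30 and 0.33), Rpl3 (0.23 and 0.26) and Rpl7a (0.26 and 0.21). Rps27 ran against both Rpl41 (-0.32 and -0.30) and Rps2 (-0.35 and -0.22), and Rps14 against Rps2 (-0.30 and -0.21). The residuals of a cell share its total, which ties them to each other, and the cells of a set share 1 library. The residual of Rpl23a also had r = 0.22 and 0.28 with the cell's log Malat1 level outside the members, and Rps15 had 0.22 and 0.17. These are descriptions of the cells of 2 libraries, without a test.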

How the data were processed

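The deposited table holds whole-number UMI counts per gene and cell, which the authors had not scaled. The submitters' processing notes name the tools Cell Ranger 3.1.0 and Seurat 4.1.0 and the build mm10. Settings, annotation and the use of strand were not given in the sources used here. Unit checks found no values but whole numbers.

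Kept cells were split by name suffix and by proliferation UMIs, and counts were summed per group and given per 1000000 UMIs (CPM). No doublets were removed, since the member rule sets no such step. Shares and ratios carry exact binomial 95% intervals of counting error, and CPM exact Poisson ones. A member departed when its ratio was at least 1.5-fold from the median member, with at least 100 UMIs in both groups together. TMM factors came from edgeR 4.0.16 and served as another scaling only. Set 1 held 16514632 UMIs over kept cells and set 2 18026148, so levels above 100 CPM rest on over 100 UMIs in each group. Thinning drew UMIs without replacement (seed 1), and cycling was then called again on the thinned counts, so thinned groups are not the same cells. Ratios and intervals were tested on simulated data. Python 3.11.15, numpy 2.4.6, scipy 1.17.1 and R 4.3.3 were used.

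The members and lists were chosen with earlier results of these data known. Named genes were the 10 largest departures between the sets, the 5 highest and 5 lowest in cycling cells of each set, and the paralogues. Also named were the 5 members of each set with the largest ratio of variance to sampling, members with roles of their own, and up to 4 genes of each other list. Alternatives changed the mitochondrial limit, depth, the cycling call, the kind of mean, the total, the sex of cells read from Xist and Y-linked UMIs, the UMI minimum, the fold and the scaling. snoRNA host RNAs had 3 of 9 genes in the table, all lower in set 2 (median -0.94). Cells of the days were not compared, as no label ties the suffix to a day. A few genes that enter the counts and medians are not reported here by name.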

Additional observations from a re-analysis of the deposited data

Results flagged for a closer look

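Rps2 and Rpsa were the members whose cycling cells went opposite ways in the 2 sets, with intervals of counting error on opposite sides of 1. The ratio of cycling over other cells was 0.965 for Rps2 in set 1 and 1.10 in set 2, and 0.914 for Rpsa in set 1 and 1.04 in set 2. The difference between the sets was not tested, and after TMM scaling both genes were lower in cycling cells of both sets.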

How the results depend on the processing

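Of 30 recomputed differences in share, 0 changed sign. Between the sets in cells not cycling, the difference was -2.65 percentage points, and it was -2.31 at a mitochondrial limit of 5%, -2.44 with cells thinned to 4000 UMIs, -2.57 with cycling called at 5 UMIs, -3.48 as a mean over single cells, -2.93 without mitochondrial UMIs, -2.86 in cells with Xist and no Y-linked UMIs and -2.46 in cells with at least 2000 UMIs, a limit chosen after seeing the data. In cycling cells it was -3.48, and -4.05 thinned, -3.82 at 5 UMIs, -4.14 as a mean over cells, -3.87 without mitochondrial UMIs, -2.61 in cells with Xist and -3.98 in cells with Y-linked UMIs. Cycling against other cells gave -4.87 in set 1, and -4.74 at the 5% limit, -5.51 thinned, -5.11 at 5 UMIs, -5.0 as a mean over cells, -5.08 without mitochondrial UMIs and -4.06 at matched depth. In set 2 it gave -5.71, and -5.92, -7.12, -6.36 and -6.02 at the 5% limit, thinned, at 5 UMIs and without mitochondrial UMIs, -5.82 at matched depth and -5.87 above 2000 UMIs.

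A limit of 2-fold left 1 departing member between the sets (Rpl27) and 0 of 3 in cycling cells of set 2. Thinning gave 5 there. TMM scaling, which measures from no change, gave 26, all lower in cycling cells and none of the 3 among them. It shifts every gene by -0.20 (log2) in this contrast. The share of all genes past 1.5-fold after that scaling was not taken, so the 26 have no background to be read against. Cells of matched depth left 2, without Rps27l. Of 60 recomputed departures of named members, 0 changed sign. These members were picked because they departed in the same cells, so the kept sign is a weak check. In cycling cells of set 2, TMM scaling took Rps19bp1 from 0.97 to 0.46, Rpl7l1 from 0.78 to 0.27 and Rps27l from 0.75 to 0.23 (log2). With 1 library of each day and no label for the suffix, library, age and cell state cannot be told apart. Levels below about 50 CPM in cycling cells of set 2 rest on under 100 UMIs.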
